A study of Solanum lycopersicum with 6 samples.

Results

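The lipoxygenase and oxylipin branch genes of tomato are the enzymes that oxygenate polyunsaturated fatty acids and divide the products between jasmonate, leaf-type aldehydes and the 9-hydroperoxide products. They were followed here as 9 genes, taken by gene identifier, of 21708 genes listed in any library. The study asked how loss of SlNOR-like1, a NAC transcription factor, alters gene expression related to cuticle metabolism. RNA was sequenced from exocarp, the outer fruit layer, of SlNOR-like1 knockout (nor-like1) and wild-type (WT) tomato (Solanum lycopersicum), both at the stage labelled MG, with 3 libraries per genotype. The authors' deposited comparison adds a further number to the mutant name. The sources used here do not say whether that number marks an allele or a line, and they name no treatment. The labels do not tie a library to its own plant or fruit, so the spread between libraries behind every p-value may be technical.

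The genes were chosen by branch, and also from measured values, since earlier results of the same nor-like1 over WT contrast were known and CYP74C3 had stood among its largest rises. Their fold changes and calls in this contrast are therefore a description and are not used as evidence that the genotypes differ in oxylipin synthesis. The names follow the gene descriptions in the deposited tables and best protein hits. Lipoxygenase A (LOXA, Solyc08g014000.3) and lipoxygenase B (LOXB, Solyc01g099190.4) belong to the 9-lipoxygenases. Cytochrome P450 CYP74C3 (Solyc10g007960.1), which RefSeq calls AOS3, stands for the CYP74C branch. The volatile branch is lipoxygenase C (LOXC, Solyc01g006540.4) and hydroperoxide lyase (HPL, Solyc07g049690.3). The jasmonate branch is lipoxygenase D (LOXD, Solyc03g122340.3), allene oxide synthase (AOS1, Solyc04g079730.1), allene oxide cyclase (AOC, Solyc02g085730.3) and 12-oxophytodienoate reductase 3 (OPR3, Solyc07g007870.3).

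As background, a lipoxygenase adds oxygen to linoleic or linolenic acid at a fixed carbon, and the position sets which enzymes can use the hydroperoxide. Plastid 13-lipoxygenases feed both hydroperoxide lyase, which cuts the chain to the short aldehydes of green leaf odour and tomato flavour, and allene oxide synthase. Allene oxide synthase and allene oxide cyclase together make the jasmonate precursor, which OPR3 reduces in the peroxisome before beta-oxidation shortens it. Jasmonate joined to isoleucine is sensed through COI1 and the JAZ repressors, which release MYC2, and in tomato leaves it is known to raise proteinase inhibitors and other wound defence proteins. The 9-lipoxygenases are abundant in tomato fruit, and CYP74C enzymes act on 9-hydroperoxides.

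The libraries held 8503210 to 11023036 expected counts in nor-like1 and 11459875 to 17578533 in WT. The SlNOR-like1 transcript (Solyc07g063420.3) had 24.52, 16.93 and 18.05 CPM in the nor-like1 libraries, against 129.8, 114.3 and 120.8 CPM in the WT libraries, where CPM is counts per 1000000 after scaling. All 6 exocarp markers were detected, with a summed level of 1058 to 1271 FPKM in nor-like1 and 479 to 570 FPKM in WT. As single genes 2 of the 6 were called higher (CER3 and CER6, of wax synthesis), 2 lower (GPAT6 and a cytochrome P450 of the CYP86A family, of cutin synthesis) and 2 not, at a median log2 fold change of 0.27. FPKM is fragments per kilobase of transcript and per 1000000 fragments, and allows levels of different genes to be set side by side. Summed seed markers (23 listed, 6 tested) lay at 33.6 to 39.7 FPKM in nor-like1 and 37.1 to 57.0 FPKM in WT. Of these 23, 5 were at 0 in all nor-like1 libraries and 2 in all WT libraries. The 6 ripening markers summed to 800, 238 and 152 FPKM in nor-like1 replicates 1 to 3 and to 1095, 264 and 316 FPKM in WT replicates 1 to 3, so replicate 1 was the highest library of both genotypes. WT replicate 3 also stood apart for many genes: 691 genes, 4.22% of those tested, were over 2-fold above both other WT libraries there. The part of any marker list in the values below was not tested.

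The 9 genes did not move in 1 direction. LOXA and CYP74C3 were higher in nor-like1, HPL was slightly lower, and none of the 4 jasmonate branch genes was called. All 9 genes passed the filter on low counts, 3 were called at an adjusted p below 0.05 in the edgeR quasi-likelihood fit across 16380 genes, and 6 were not. Over all genes tested 21.9% were called. There were 2 genes called higher, where 10.5% of all tested genes were, and 1 called lower, where 11.4% were. The same 3 genes had libraries that did not overlap between genotypes, which held for 42.9% of all tested genes, and nothing is read from these shares. The median log2 fold change, nor-like1 over WT, was 0.41 over the 9 genes and -0.01 over all genes tested. By branch it was 0.36 for the 9-lipoxygenases (2 genes), -1.22 for the volatile branch (2 genes) and 0.52 for the jasmonate branch (4 genes). With 2 genes the median is only the midpoint of unlike values. These were 1.57 for LOXA and -0.84 for LOXB, and -1.94 for LOXC, not called, and -0.51 for HPL. The authors' deposited table gives log2 fold changes between -0.59 and 0.76 for the 6 genes not called here and marks none of them as changed. In bulk tissue fewer cells of a type and less RNA per cell cannot be told apart.

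**Figure D1:**
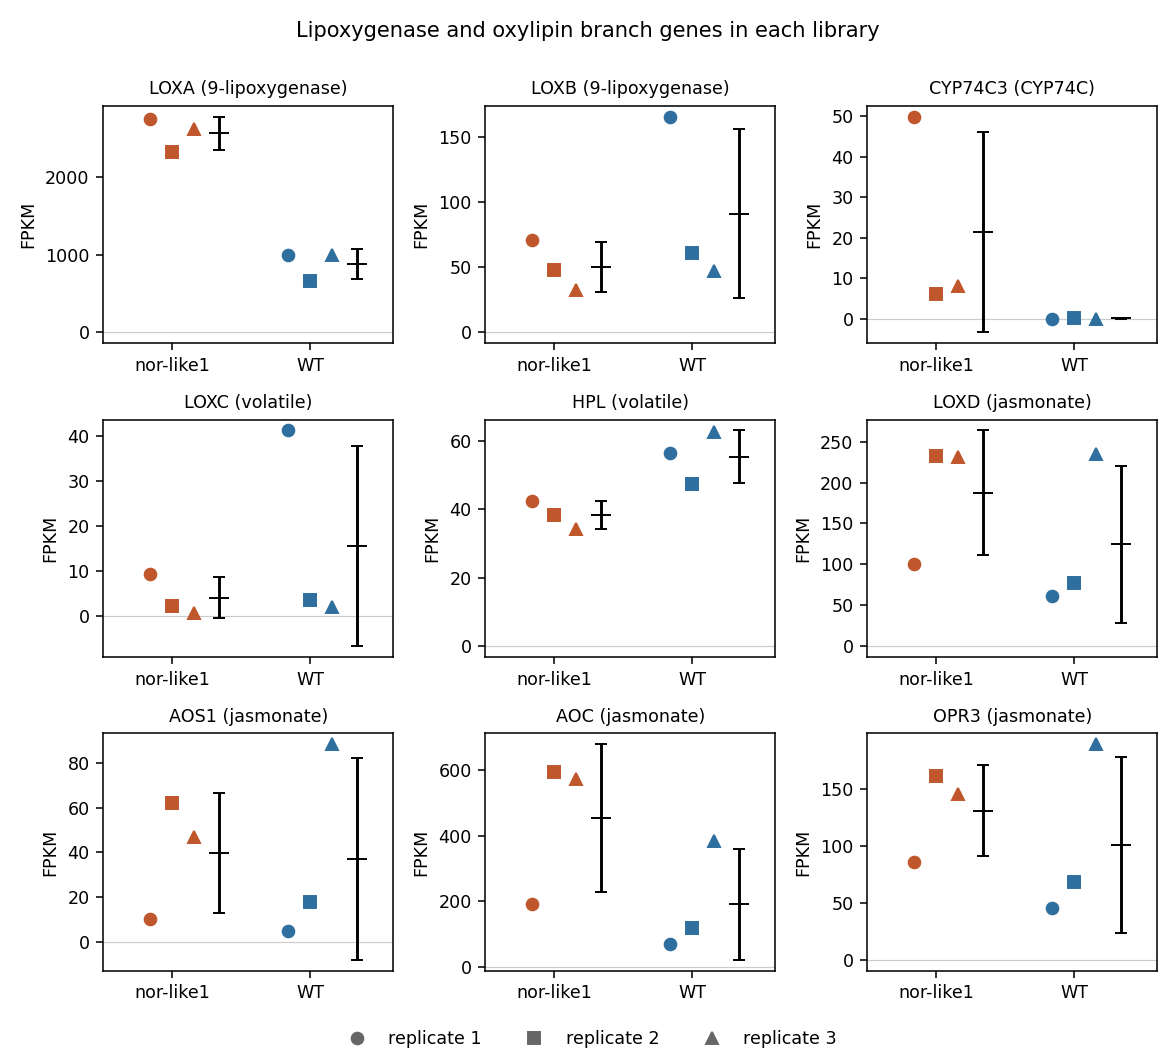
Level of each of the 9 genes in FPKM (vertical axis, linear) in the 3 nor-like1 libraries (left, orange) and the 3 WT libraries (right, blue), with marker shape giving the replicate and the black bar the mean ± SD. LOXA, CYP74C3 and HPL are separated by genotype, LOXC and LOXB are highest in replicate 1 of both genotypes, and LOXD, AOS1, AOC and OPR3 are low in nor-like1 replicate 1 and high in WT replicate 3.

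By mean level the order in nor-like1 was LOXA, AOC (454 ± 226 FPKM), LOXD (188 ± 76.1), OPR3 (131 ± 40.1), LOXB (50.5 ± 19.3), AOS1 (39.7 ± 26.8), HPL (38.3 ± 4.08), CYP74C3 (21.4 ± 24.8) and LOXC (4.003 ± 4.57). In WT it was LOXA, AOC (191 ± 170), LOXD (124.5 ± 95.7), OPR3 (101 ± 77.3), LOXB (91.2 ± 65), HPL (55.4 ± 7.65), AOS1 (37.0 ± 45.1), LOXC (15.5 ± 22.3) and CYP74C3 (0.0833 ± 0.144 FPKM; SD, n = 3 each). The ranges of neighbours in these orders overlapped, except LOXA above AOC in both genotypes, OPR3 above LOXB in nor-like1 and LOXC above CYP74C3 in WT.

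LOXA, a 9-lipoxygenase, was the most abundant of the 9 genes in every library. Its level was 2750.0, 2325 and 2614 FPKM in nor-like1 replicates 1 to 3, against 991, 656 and 993 FPKM in WT replicates 1 to 3. Every nor-like1 library lay above every WT library, and in CPM the highest library was 1.17-fold the lowest in nor-like1 and 1.53-fold in WT. LOXA was the 20th, 22nd and 19th most abundant gene by FPKM in the nor-like1 libraries, against the 47th, 102nd and 48th in the WT libraries, and took 0.727% to 0.826% of all counts in nor-like1 and 0.193% to 0.295% in WT. The means were 7758 ± 622 CPM in nor-like1 and 2619 ± 577 CPM in WT (SD, n = 3 each), a 2.96-fold difference. On the log2 scale this is 1.57 (SE 0.202; edgeR adjusted p = 0.00469), and it was 1.40 to 1.67 and called under all 15 other settings. The authors' deposited table gives a log2 fold change of 1.52 and marks the gene as up.

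LOXB, the other 9-lipoxygenase, was far below LOXA. It measured 70.8, 48.3 and 32.5 FPKM in nor-like1 replicates 1 to 3, against 166, 60.7 and 47.0 FPKM in WT replicates 1 to 3. The genotypes overlapped, and replicate 1 was the highest library in each. In CPM, replicate 1 was at 1.74 times the mean of the other libraries in nor-like1 and at 3.15 times in WT. The log2 fold change of -0.84 (SE 0.544) was not called (edgeR adjusted p = 0.308), and without WT replicate 1 it was -0.07. The LOXB row joins 2 transcripts, 1 of them with an identifier outside the Solyc scheme. Expected counts can divide reads between close lipoxygenase relatives, so single family members are uncertain.

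Taken as a share of the summed FPKM of the 4 lipoxygenases, the 9-lipoxygenases made up 96.3%, 91.0% and 91.9% in nor-like1 replicates 1 to 3, against 91.8%, 89.9% and 81.5% in WT replicates 1 to 3. Other lipoxygenases are not in this sum, so the share describes these 4 genes only. Among those left out, TomloxE (Solyc01g099160.5) averaged 59.0 FPKM in nor-like1 and 14.1 FPKM in WT. A lipoxygenase 6 homolog (Solyc05g014790.3) averaged 33.1 and 22.2 FPKM. Of 9 others tested, 4 were called higher and 3 lower. The means were 93.1% ± 2.84 in nor-like1 and 87.7% ± 5.48 in WT (SD, n = 3 each), and the ranges overlapped. LOXA alone gave 93.9%, 89.2% and 90.8% of that sum in nor-like1, against 78.7%, 82.3% and 77.8% in WT. Without WT replicate 3, where LOXD was high, the mean 9-lipoxygenase share was 93.1% in nor-like1 and 90.9% in WT.

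CYP74C3, an allene oxide synthase of the CYP74C type that uses 9-hydroperoxides, was found almost entirely in nor-like1 libraries. It had 775, 90 and 96 counts in nor-like1 replicates 1 to 3 (49.99, 6.13 and 8.03 FPKM), against 0, 4 and 0 counts in WT replicates 1 to 3 (0, 0.25 and 0 FPKM). All nor-like1 libraries lay above all WT libraries, and nor-like1 replicate 1 was at 7.01 times the mean of the other nor-like1 libraries in CPM. A count of 0 allows up to 0.171 CPM in WT replicate 1 and 0.185 CPM in WT replicate 3, for counting error only. The 961 counts in nor-like1 and 4 in WT gave a depth-scaled ratio of 364 with a 95% exact counting interval of 142 to 1340, which does not hold the spread between libraries.

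The fitted log2 fold change of CYP74C3 was 8.24 (SE 1.5; edgeR adjusted p = 0.0152), and its size depends on the 4 WT counts. Without nor-like1 replicate 1 it was 6.63, and without both replicate 1 libraries 5.99. The call was lost without WT replicate 1 (log2 fold change 7.59, adjusted p = 0.0541) and without WT replicate 2 (11.59, adjusted p = 0.0785). In the authors' deposited table, from DESeq2, the log2 fold change is 0.91 with an adjusted p of 0.14, and the gene is not marked as changed. DESeq2 run here gave 8.09 (DESeq2 adjusted p = 0.000262), and why the authors' value is smaller was not tested.

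LOXC, the 13-lipoxygenase known in tomato fruit for flavour volatiles, was highest in replicate 1 of both genotypes. It measured 9.22, 2.07 and 0.72 FPKM in nor-like1 replicates 1 to 3, against 41.24, 3.42 and 1.93 FPKM in WT replicates 1 to 3. The genotypes overlapped. In CPM, replicate 1 was at 6.54 times the mean of the other libraries in nor-like1 and at 15.7 times in WT. Among all tested genes, 204 (1.25%) were over 2-fold above both other nor-like1 libraries in replicate 1, and 94 (0.574%) were so in WT; LOXC was in both sets. The log2 fold change of -1.94 (SE 1.37) was not called (edgeR adjusted p = 0.347). It was -3.42 without nor-like1 replicate 1 and turned to 0.63 without WT replicate 1.

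Of the 6 ripening markers, 4 were highest in replicate 1 of both genotypes: E8, PG2A, phytoene synthase 1 and E4 (Solyc03g111720.3). E8, an ethylene-responsive ripening gene (Solyc09g089580.4), had 172, 15.8 and 7.63 FPKM in nor-like1 replicates 1 to 3, against 694, 87.7 and 72.1 FPKM in WT replicates 1 to 3. The polygalacturonase PG2A (Solyc10g080210.2), which degrades pectin in ripening fruit, had 1.28, 0.35 and 0 FPKM in nor-like1, against 31.7, 1.86 and 0.54 FPKM in WT. NOR (Solyc10g006880.3), a related NAC factor that controls ripening, had 199, 51.9 and 53.3 CPM in nor-like1 and 110.2, 84.0 and 74.7 CPM in WT. The other two, both of ethylene synthesis, did not share this order. ACS4 (Solyc05g050010.3) had 0.26, 0.92 and 0.85 FPKM in nor-like1, against 0.94, 0.77 and 0.36 FPKM in WT. ACS2 (Solyc01g095080.3) had 4.46, 7.54 and 3.27 FPKM in nor-like1, against 3.01, 1.62 and 3.13 FPKM in WT. These levels stand beside those of LOXC, and their part in the LOXC values was not tested.

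HPL, which cleaves 13-hydroperoxides to aldehydes, varied little within a genotype, 1.24-fold between the highest and lowest library in nor-like1 and 1.3-fold in WT in CPM. It measured 42.3, 38.4 and 34.1 FPKM in nor-like1 replicates 1 to 3, against 56.3, 47.3 and 62.5 FPKM in WT replicates 1 to 3. All nor-like1 libraries lay below all WT libraries. The fitted level was 0.703 of that in WT (log2 fold change -0.51, SE 0.136; edgeR adjusted p = 0.0371). The call held in 8 of 15 other settings. It was lost without WT replicates 1, 2 or 3 (adjusted p = 0.107, 0.054 and 0.0568) and without nor-like1 replicates 2 or 3 (0.108 and 0.112), and without both replicate 1 libraries (0.0905), while the log2 fold change kept between -0.60 and -0.43 in all 15. The authors' deposited table has -0.49 with an adjusted p of 0.0154 and does not mark the gene.

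**Figure D2:**
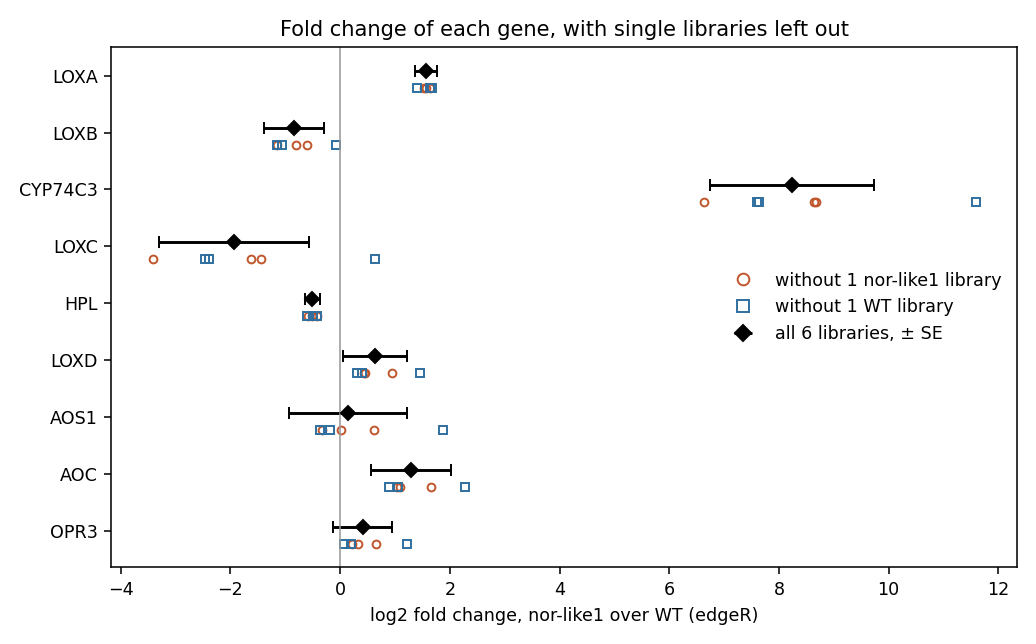
Log2 fold change, nor-like1 over WT, of each gene (horizontal axis) from edgeR with all 6 libraries (black diamond, ± SE) and with 1 library left out (open orange circles where a nor-like1 library was left out, open blue squares where a WT library was). LOXA stays between 1.40 and 1.67 and HPL between -0.60 and -0.43, whereas LOXC runs from -3.42 to 0.63 and AOS1 from -0.37 to 1.87.

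In the jasmonate branch all 4 genes overlapped between genotypes. LOXD, the 13-lipoxygenase known for wound jasmonate, had 99.9, 232 and 231 FPKM in nor-like1 replicates 1 to 3, against 61.8, 77.1 and 235 FPKM in WT replicates 1 to 3. WT replicate 3 thus reached the level of nor-like1 replicates 2 and 3. In CPM nor-like1 replicate 1 was at 0.429 of the mean of the other nor-like1 libraries, and WT replicate 3 was at 3.30 times the mean of the other WT libraries. Between genotypes LOXD gave a log2 fold change of 0.63 (SE 0.581; edgeR adjusted p = 0.468).

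AOS1, the plastid allene oxide synthase, was the most variable of the branch. It had 10.1, 62.1 and 47.0 FPKM in nor-like1 replicates 1 to 3, against 4.71, 17.7 and 88.6 FPKM in WT replicates 1 to 3. The highest and the lowest library were both WT, and in CPM they lay 18.1-fold apart. Its log2 fold change was 0.14 (SE 1.08; edgeR adjusted p = 0.934), and it turned to -0.34 without nor-like1 replicate 2 and to -0.37 and -0.18 without WT replicates 1 and 2.

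AOC, which sets the stereochemistry of the jasmonate precursor, was the most abundant gene of the branch in all 6 libraries. It had 193, 594 and 574 FPKM in nor-like1 replicates 1 to 3, against 68.2, 119 and 385 FPKM in WT replicates 1 to 3. Only WT replicate 3 lay within the nor-like1 range. AOC gave a log2 fold change of 1.29 (SE 0.721; edgeR adjusted p = 0.242).

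OPR3, the peroxisomal reductase, had 85.5, 162 and 146 FPKM in nor-like1 replicates 1 to 3, against 45.7, 67.9 and 189 FPKM in WT replicates 1 to 3. WT replicate 3 was above every nor-like1 library. OPR3 gave a log2 fold change of 0.41 (SE 0.542; edgeR adjusted p = 0.616).

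All 4 jasmonate branch genes were over 2-fold above both other WT libraries in WT replicate 3, as were 691 (4.22%) of all tested genes. In 3 of the 4, nor-like1 replicate 1 was under 0.5 of both other nor-like1 libraries, as were 492 (3.0%) of all tested genes. In all 4 it was the lowest nor-like1 library. Without WT replicate 3, log2 fold changes were 1.45 for LOXD (edgeR adjusted p = 0.05 after rounding, not called), 1.87 for AOS1, 2.28 for AOC (adjusted p = 0.0385) and 1.21 for OPR3 (adjusted p = 0.0438). That fit called 4742 genes in all, against 3585 with all libraries. With both replicate 1 libraries left out, the 4 genes were not called.

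**Figure D3:**
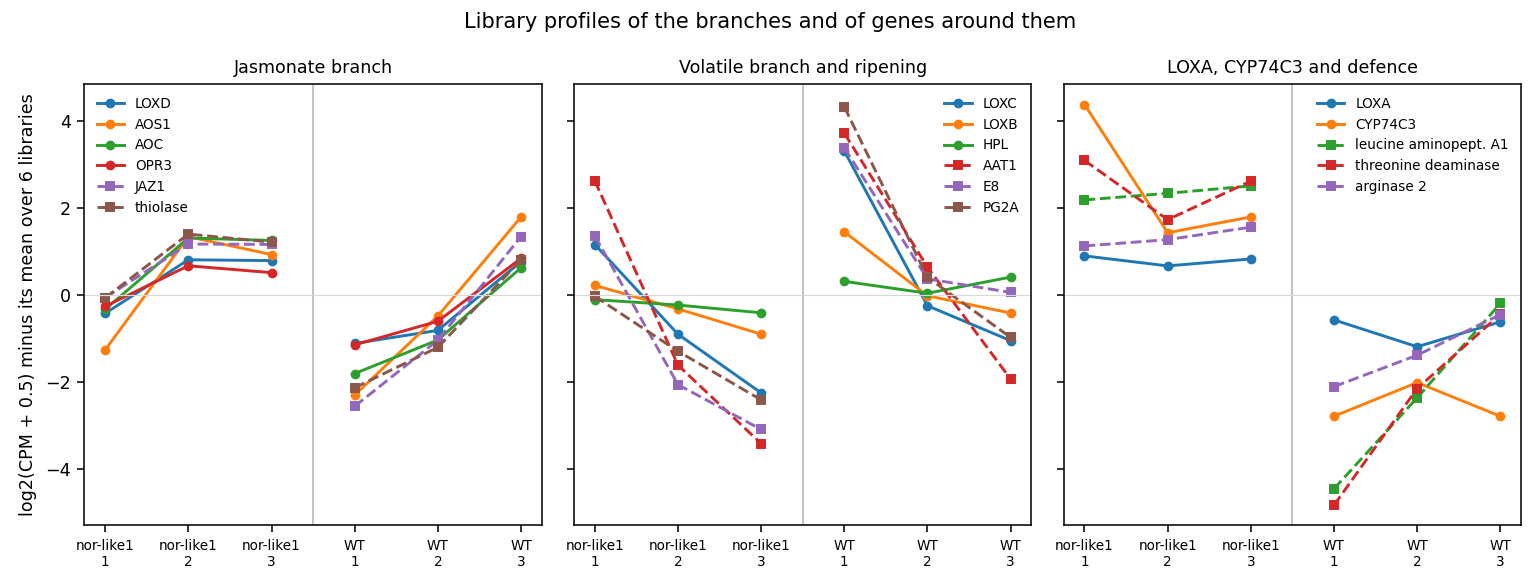
Library profiles of branch genes (solid lines, circles) and other genes (dashed lines, squares): log2(CPM + 0.5) minus the gene's mean over 6 libraries (vertical axis), for nor-like1 replicates 1 to 3 and then WT replicates 1 to 3. Lines join points of 1 gene and carry no order in time. Within WT the jasmonate branch genes, a JAZ repressor and a thiolase are highest in replicate 3. LOXC, E8 and PG2A are highest in replicate 1 of both genotypes. LOXA, CYP74C3 and the defence genes drawn (leucine aminopeptidase A1, threonine deaminase and arginase 2) divide by genotype.

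HPL and AOS1, which both use 13-hydroperoxides, were set side by side as the ratio of their transcripts in FPKM, which does not measure use of the substrate. AOS2 (Solyc11g069800.1), another allene oxide synthase, is not in this ratio. It had 43.6, 36.9 and 33.1 FPKM in nor-like1 replicates 1 to 3, against 15.7, 24.3 and 44.9 FPKM in WT replicates 1 to 3. The ratio of HPL to AOS1 was 4.19, 0.618 and 0.727 in nor-like1 replicates 1 to 3, against 11.9, 2.68 and 0.706 in WT replicates 1 to 3. Replicate 1 had the highest ratio in both genotypes. The mean log2 ratio was 0.304 ± 1.531 in nor-like1 and 1.498 ± 2.042 in WT (SD, n = 3 each), a difference within the spread. That difference, -1.19 with all libraries, was -2.08 without nor-like1 replicate 1, -0.15 without WT replicate 1 and -2.2 without WT replicate 3, and -0.7 and -0.81 without nor-like1 replicates 2 and 3. The ratio of LOXC to LOXD was 0.0923, 0.0089 and 0.00312 in nor-like1, against 0.667, 0.0443 and 0.00823 in WT, again highest in replicate 1.

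The upstream and downstream steps were counted over lists of other genes, without the 9 above. Beside each list stand the shares over all tested genes, 10.5% called higher and 11.4% called lower. Among 9 other lipoxygenases, 4 rose and 3 fell, and 2 were not called, at a median log2 fold change of 0.60. TomloxE (Solyc01g099160.5) averaged 284 ± 43.5 CPM in nor-like1 and 66.7 ± 14.2 CPM in WT (SD, n = 3 each; log2 fold change 2.09, edgeR adjusted p = 0.00214). A plastid lipoxygenase 6 homolog (Solyc05g014790.3) averaged 110.5 ± 2.08 CPM in nor-like1 and 72.9 ± 1.85 CPM in WT (edgeR adjusted p = 0.00647). A further 9-lipoxygenase homolog (Solyc01g099210.3) averaged 2.58 ± 0.465 CPM in nor-like1 and 0.552 ± 0.201 CPM in WT (edgeR adjusted p = 0.00953). Lipoxygenase F (loxF, Solyc01g006555.2) averaged 10.7 ± 0.931 CPM in nor-like1 and 4.21 ± 1.64 CPM in WT (edgeR adjusted p = 0.0166), a call lost without nor-like1 replicates 2 or 3 or WT replicate 2 (0.0574, 0.0586 and 0.0628). None of the 3 that fell was called when nor-like1 replicate 2 was left out, nor when WT replicates 1 or 2 were.

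Lipid release came next. Among 14 phospholipase A1 and DAD1-like genes, which free fatty acids from membranes, 4 rose and 10 were not called (median log2 fold change 0.54). The phospholipase A1 gene Solyc02g077430.5 stood out in level, with 572, 1005 and 1227 FPKM in nor-like1 replicates 1 to 3, against 8.86, 14.9 and 42.9 FPKM in WT replicates 1 to 3 (log2 fold change 5.43, edgeR adjusted p = 0.00649). Its relative Solyc02g077420.3 averaged 109.7 ± 49.5 CPM in nor-like1 and 1.86 ± 1.83 CPM in WT (SD, n = 3 each; edgeR adjusted p = 0.00645). Both were farther apart without WT replicate 3, at log2 fold changes of 6.31 and 7.15. The DAD1-like gene Solyc01g090220.4, chosen after its values were seen, was not called (log2 fold change -0.55, edgeR adjusted p = 0.074).

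Later steps of jasmonate synthesis and turnover are given against the 21.9% of all genes that were called. Of 10 peroxisomal beta-oxidation genes, 2 rose and 8 were not called, with a median log2 fold change of 0.28, and 0 were called higher without nor-like1 replicates 1 or 2 or WT replicates 1 or 2. Without nor-like1 replicate 1 the list had 2 genes called lower, with nor-like1 replicate 3 left out 1 called higher, and with WT replicate 3 left out 3 called higher and 1 lower. The 3 other 12-oxophytodienoate reductases and 1 other CYP74 enzyme, AOS2 (Solyc11g069800.1), were not called. Of 15 genes for jasmonate conjugation and turnover, 4 rose and 11 were not called, with a median of -0.06 on the same scale. Leaving out WT replicate 2 gave 1 call, leaving out nor-like1 replicate 2 or 3 gave 2 calls, and leaving out WT replicate 3 gave a median of 0.94. The 4 genes were 3 IAA-amino acid hydrolases, of a family that also cleaves auxin conjugates, and a CYP94A homolog (Solyc07g006890.1; edgeR adjusted p = 0.0467, and 0.0719 to 0.129 without any single library other than WT replicate 3). The hydrolase Solyc12g008690.3 averaged 27.9 ± 3.59 CPM in nor-like1 and 13.7 ± 1.22 CPM in WT (SD, n = 3 each; edgeR adjusted p = 0.00507). JAR1 (Solyc10g011660.3), which joins jasmonate to isoleucine, averaged 21.2 ± 9.84 CPM in nor-like1 and 19.9 ± 1.45 CPM in WT (edgeR adjusted p = 0.876).

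For perception, 16 genes were tested, of which 2 fell, 0 rose and 14 were not called, with a median log2 fold change of 0.26, and without WT replicate 3 there were 6 higher and 2 lower at a median of 0.69. Without any single library other than WT replicate 3, 1 or 2 fell and 0 rose. The 2 that fell were listed by the ninja-family name, which does not by itself place a gene in jasmonate signalling. Of these, Solyc02g088910.3 is described as Ninja-family protein AFP3. It averaged 27.0 ± 0.958 CPM in nor-like1 and 47.1 ± 4.69 CPM in WT (SD, n = 3 each, edgeR adjusted p = 0.00532). All 11 TIFY/JAZ genes tested were uncalled, and 6 of them were over 2-fold above both other WT libraries in WT replicate 3. MYC2 (Solyc08g076930.1), the main transcription factor of the response, averaged 344 ± 95.8 CPM in nor-like1 and 237 ± 58.4 CPM in WT (edgeR adjusted p = 0.161). Without both replicate 1 libraries its adjusted p was 0.0328. COI1 was not analysed here.

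Most genes of the wound and jasmonate defence list were higher in nor-like1. Among 24, 20 rose and 1 fell, and 3 were not called, with a median log2 fold change of 4.0, against -0.01 for all genes tested. The list holds protease inhibitors, polyphenol oxidases, arginases, threonine deaminase and leucine aminopeptidases, some of which have near-identical copies, and several were already known among the largest rises. A proteinase inhibitor type-2 (Solyc03g020060.3), which blocks digestive proteases of insects, averaged 3774 ± 316 CPM in nor-like1 and 541 ± 251 CPM in WT (SD, n = 3 each; edgeR adjusted p = 0.00398). A Kunitz-type inhibitor (Solyc03g098740.1) averaged 51.1 ± 14.8 CPM in nor-like1 and 5.15 ± 1.67 CPM in WT (edgeR adjusted p = 0.00255). The gene that fell was a further type-2 inhibitor (Solyc11g020960.2), with 23.1 ± 1.81 CPM in nor-like1 and 84.3 ± 24.2 CPM in WT (edgeR adjusted p = 0.00312).

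Arginase 2 (Solyc01g091170.3), which degrades arginine, averaged 1624 ± 253 CPM in nor-like1 and 290.4 ± 166 CPM in WT (edgeR adjusted p = 0.0128, and 0.062 without WT replicate 2). Arginase 1 (Solyc01g091160.4) was not called (log2 fold change -0.3, edgeR adjusted p = 0.0845). Threonine deaminase (Solyc09g008670.3) averaged 359.5 ± 156 CPM in nor-like1 and 19.5 ± 21.8 CPM in WT (edgeR adjusted p = 0.0394). That call was lost without nor-like1 replicates 1, 2 or 3 (0.0906, 0.0826 and 0.0922) or WT replicate 2 (0.137). Leucine aminopeptidase A1 (Solyc12g010020.3) averaged 942 ± 106 CPM in nor-like1 and 68.4 ± 81.8 CPM in WT (edgeR adjusted p = 0.0461), lost in the same fits (0.0913 to 0.147). Of the 24 genes, 14 were over 2-fold above both other WT libraries in WT replicate 3. With 24 to 26 genes tested, 9 were called higher without WT replicate 2 and 17 to 20 without any other single library.

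**Figure D4:**
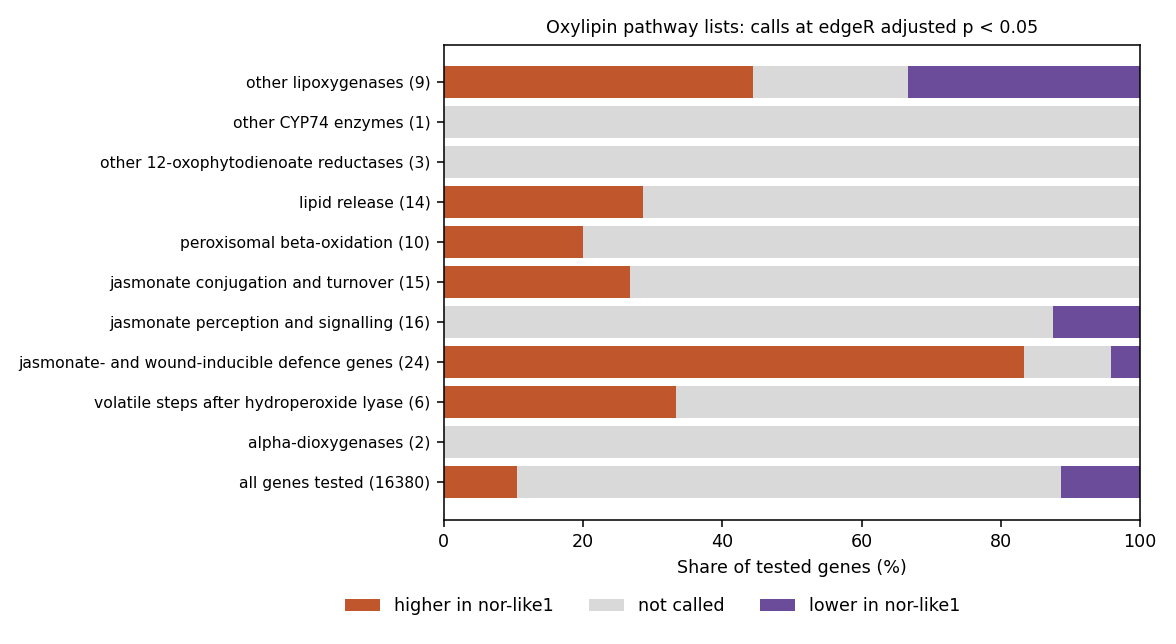
Share of tested genes in each pathway list, and of all tested genes, that were higher in nor-like1 (orange), not called (grey) or lower in nor-like1 (purple) at edgeR adjusted p below 0.05, with the number tested in brackets. The defence list has 20 of 24 genes higher, while the perception list has 0 of 16 higher and 2 lower.

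Of 6 genes tested on the list for steps after hydroperoxide lyase, 2 rose and 4 were not called (median log2 fold change 2.08). Apart from AAT1 and alcohol dehydrogenase 2, given below, the list was matched by the name alcohol acetyltransferase. That name does not place a gene after hydroperoxide lyase. Without WT replicate 3, 4 were called higher at a median of 4.13, and without any other single library 1 was. The 2 were acetyl-CoA-benzylalcohol acetyltransferase homologs, of which Solyc12g005430.1 averaged 5.93 ± 2.37 CPM in nor-like1 and 0.1004 ± 0.127 CPM in WT (SD, n = 3 each; edgeR adjusted p = 0.00345). The log2 fold change was 5.62 with all libraries and 7.01 when WT replicate 3 was left out. The alcohol acyltransferase AAT1 (Solyc08g005770.3), which makes fruit esters, had 33.6, 1.5 and 0.3 FPKM in nor-like1 replicates 1 to 3, against 74.3, 8.5 and 1.3 FPKM in WT replicates 1 to 3. As for LOXC, replicate 1 was the highest in both genotypes. It was not called (log2 fold change -1.19, edgeR adjusted p = 0.651), and the log2 fold change was -4.8 without nor-like1 replicate 1, 1.34 without WT replicate 1 and -2.29 without both replicate 1 libraries. Alcohol dehydrogenase 2 (Solyc06g059740.4), which reduces aldehydes to alcohols, averaged 772 ± 586 CPM in nor-like1 and 622 ± 188 CPM in WT (log2 fold change 0.31, edgeR adjusted p = 0.707, and -0.5 on the log2 scale without nor-like1 replicate 1). The 2 alpha-dioxygenases, a separate oxylipin route, were not called.

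Likeness of profile over the 6 libraries was the Pearson correlation of log2(CPM + 0.5), a description with no p. It was searched over tested genes outside the members with a described product and a mean of at least 1 CPM. The genes named are the highest of that search over many genes. Among these, the gene most like LOXA was a leucine-rich repeat receptor-like kinase (Solyc07g066550.5, r = 0.998). For CYP74C3 it was patellin-4 (Solyc02g070210.3, r = 0.998). For AOC it was a cationic amino acid transporter (Solyc12g011370.3, r = 0.998), with 9.21, 17.7 and 18.3 CPM in nor-like1 replicates 1 to 3, against 5.35, 7.35 and 13.4 CPM in WT replicates 1 to 3. At the same rounded r of 0.998 came a gibberellin-regulated protein 12 (Solyc11g011210.2) for CYP74C3 and TOMATO WOUND-INDUCED 1 (Solyc01g107820.2) for AOC. The points behind each r share library and depth.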

How the data were processed

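Exocarp RNA from 3 nor-like1 and 3 WT libraries was extracted with Trizol and made into MGI libraries, per the labels. For each library the authors deposited RSEM expected counts, which need not be whole, and FPKM per gene, per the file headers. A DESeq2 comparison by the authors was deposited too, with log2 fold changes and adjusted p-values, per the file headers. Its 2 group columns hold an expression signal on a scale that the authors' deposited table does not state, and they were not used. The submitters' processing notes list HISAT2, StringTie, Bowtie2 and RSEM without roles. Genome build, annotation and strandedness: not given in the sources used here. A gene missing from 1 library's table was set to 0 there.

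Rounded expected counts went into edgeR 4.0.16 (R 4.3.3) with TMM factors, filterByExpr, a robust quasi-likelihood fit and genotype alone in the model. Benjamini-Hochberg adjustment ran over 16380 genes, and genes were called below 0.05. Every adjusted p of a gene is from this fit unless another tool or the authors' table is named. The standard error is the absolute log2 fold change over the square root of F. CPM uses library sizes after TMM.

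DESeq2 1.42.0, limma 3.58.1 on log2(FPKM + 1) and log2(FPKM + 0.1), other factors, other filters, a replicate block and left-out libraries were alternatives. The fitting was tested on simulated data. The 9 genes, the gene lists and the alternatives were chosen with earlier results of these data known. From each list the called genes with the smallest adjusted p, at most 4, and genes given by identifier could be named. AOS2, the jasmonate ZIM-domain gene and the thiolase drawn in the library profiles, and the genes marked so in the text, were chosen after their values were seen. List patterns were matched to descriptions and best protein hits, and mismatched hits were removed after the matches were seen. RefSeq symbols come from assembly SLM_r2.1, and no coordinates or sequences are given. Counting intervals and floors of 3 counts cover counting error only.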

Additional observations from a re-analysis of the deposited data

How the results depend on the processing

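LOXA was called under all 15 alternatives. With libraries left out 1 at a time, all genes called ranged from 1139 to 4742 and oxylipin genes called from 1 to 4, against 3585 and 3 with all libraries. The log2 fold change of CYP74C3 ranged from 6.63 to 11.59, and its call was lost without WT replicates 1 and 2. LOXC ranged from -3.42 to 0.63 and AOS1 from -0.37 to 1.87. LOXC was 0.63 without WT replicate 1. AOS1 was -0.37, -0.18 and -0.34 without WT replicate 1, WT replicate 2 and nor-like1 replicate 2. The cause was not tested. The other lipoxygenases called ranged from 3 to 8 with libraries left out, against 7. Leaving out both replicate 1 libraries, chosen after seeing the data, gave 2177 called genes. The difference in the share of 9-lipoxygenases, 5.33 percentage points, ranged from 2.22 (without WT replicate 3) to 7.37 with libraries left out, and that in the log2 ratio of HPL to AOS1 from -2.2 to -0.15. Both moved by less than 1 SD of the more variable genotype, WT, under every alternative run. Leaving out 1 of 3 libraries cannot move a mean by that much, so no stability is read from this.

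The replicate block gave 2626 calls. Under it LOXC was called (-1.49, adjusted p = 0.0401) and HPL was not (adjusted p = 0.0727), with 3 oxylipin genes called. AAT1 was called lower (adjusted p = 0.0255), and of the beta-oxidation genes 0 were called higher and 1 lower. Deviations of same-numbered libraries correlated at 0.222, -0.23 and 0.018 over 16380 genes. The labels do not say whether same-numbered libraries pair, and these correlations cannot settle it. Not every library correlated best with its own number.

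For LOXC, DESeq2 gave no adjusted p. limma on log2(FPKM + 1) gave the lowest CYP74C3 value, 3.79, and the added 1 shrinks genes near 0. CYP74C3 had 4 counts over the WT libraries, which leaves the size of its fold change imprecise.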
